A study of Sus scrofa with 24 samples.

Results

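The genes described here are the caspases measured on the porcine Affymetrix array together with FADD and BCL2L1. Members were all probe sets, the groups of short probes that read 1 transcript, whose symbol in the platform's annotation was CASP followed only by a number, or FADD or BCL2L1. The rule found 10 of the 23999 probe sets that are not array controls. They belonged to 6 of the 6765 genes with a probe set of their own: CASP1 and CASP8 with 1 probe set each, and CASP2, CASP6, FADD and BCL2L1 with 2 each. Where a gene had 2, the one with the higher mean over all arrays is called probe set 1. All 10 passed the filter on dim probe sets. A probe set shared by CASP10 and CFLAR fell outside the rule.

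RNA came from peripheral blood mononuclear cells (PBMNCs), the monocytes and lymphocytes that a density gradient separates from pig blood. The 24 arrays each held 1 animal, with 4 animals in each of 6 groups that were fed for 4 months, and every group had 2 females and 2 males. CT received standard pig chow, and AD an atherogenic diet with 1% cholic acid, 10% coconut oil and 5.5% beef tallow. AD-GE received that diet with grape extract at 1 g per 70 kg body weight, AD-RES with resveratrol at 18 mg per 70 kg, and AD-GE-RES with the resveratrol-enriched extract at both doses. CT-GE-RES received the enriched extract on standard chow. The sources used here give neither the animals' age nor their breed. Animals are numbered within a group in the order of the deposited samples, which pairs no animals across groups, and numbers 1 and 2 are females.

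Caspases are proteases that cut other proteins after aspartate and are made as inactive precursors. Death receptors at the cell surface recruit the adaptor FADD, which brings CASP8 molecules together so that they activate each other and then the executioner caspases that take the cell apart. CASP1 is activated instead in inflammasomes, the cytosolic complexes that monocytes form on sensing microbes or damage, and it matures interleukin 1 beta and interleukin 18. BCL2L1 encodes a protein of the BCL2 family whose long form guards the mitochondrial membrane against release of cytochrome c. Since caspases act only once their precursors are activated, an RNA level gives neither caspase activity nor cell death.

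Array medians lay between 38.6 and 41.0 on the deposited linear scale, and all values below are log2 intensity. With 4 arrays in a group, their number limits the precision. The lists of markers for monocytes (15 of 15 genes found on the array), T cells (11 of 11) and B cells (4 of 4) passed the filter in full, as did those for platelets (8 of 8), erythroid cells (4 of 4) and neutrophils (6 of 6), and 4 of 5 for cytotoxic cells, where FASLG was dim. Arrays CT 4 and AD-GE-RES 1 correlated least with the rest, with a mean r of 0.957 and 0.968. The log2 ratio of 3' to 5' signal of 3 control transcripts, which tends to rise as RNA degrades, ran from 1.37 to 4.39 and fell into 2 classes, 13 arrays between 1.37 and 2.23 and 11 between 2.69 and 4.39. In bulk samples, fewer cells of a type and less RNA per cell cannot be told apart.

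None of the 10 probe sets passed the adjusted threshold of 0.05 in any of the 5 comparisons of the study, in limma's moderated test with Benjamini-Hochberg adjustment over 17999 probe sets. In the same comparisons 0% of all probe sets passed it. At an unadjusted p under 0.05, 0 members passed for AD against CT, where 6.38% of all probe sets did. For AD-GE against AD 2 members did, CASP1 and FADD probe set 1, against a background of 6.09%. For AD-GE-RES against AD the count was 0 with a background of 2.4%, and for AD-RES against AD it was 0 with 4.45%. For CT-GE-RES against CT it was 1, CASP6 probe set 1, with 6.8%. The 95% interval of the difference lay within a 2-fold change either way for 7 or 8 of the 10 members in each comparison. Larger changes were thus outside the interval for most members. Of all probe sets 91.6% to 94.7% had such an interval, a larger share than of the members. The CASP8 interval was wider in all 5 and that of CASP6 probe set 2 in 4. Groups without any overlap of animals were found for 0 members in the first 4 comparisons, where 2.74%, 4.72%, 1.26% and 2.81% of all probe sets had none, and for 1 member in the last, where 4.03% did. The interaction of the enriched extract with diet had 0 members at an unadjusted p under 0.05, with a background of 3.12%, and that of sex with diet 0, with 14.9%. For the latter 0.117% of all probe sets passed after adjustment. The median member difference lay between -0.05 and 0.13, against -0.00 to 0.01 over all probe sets tested. The 3 supplemented atherogenic groups share AD as their control, AD enters its own comparison with CT, and CT also serves CT-GE-RES, so these comparisons are not independent of each other.

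**Figure D1:**
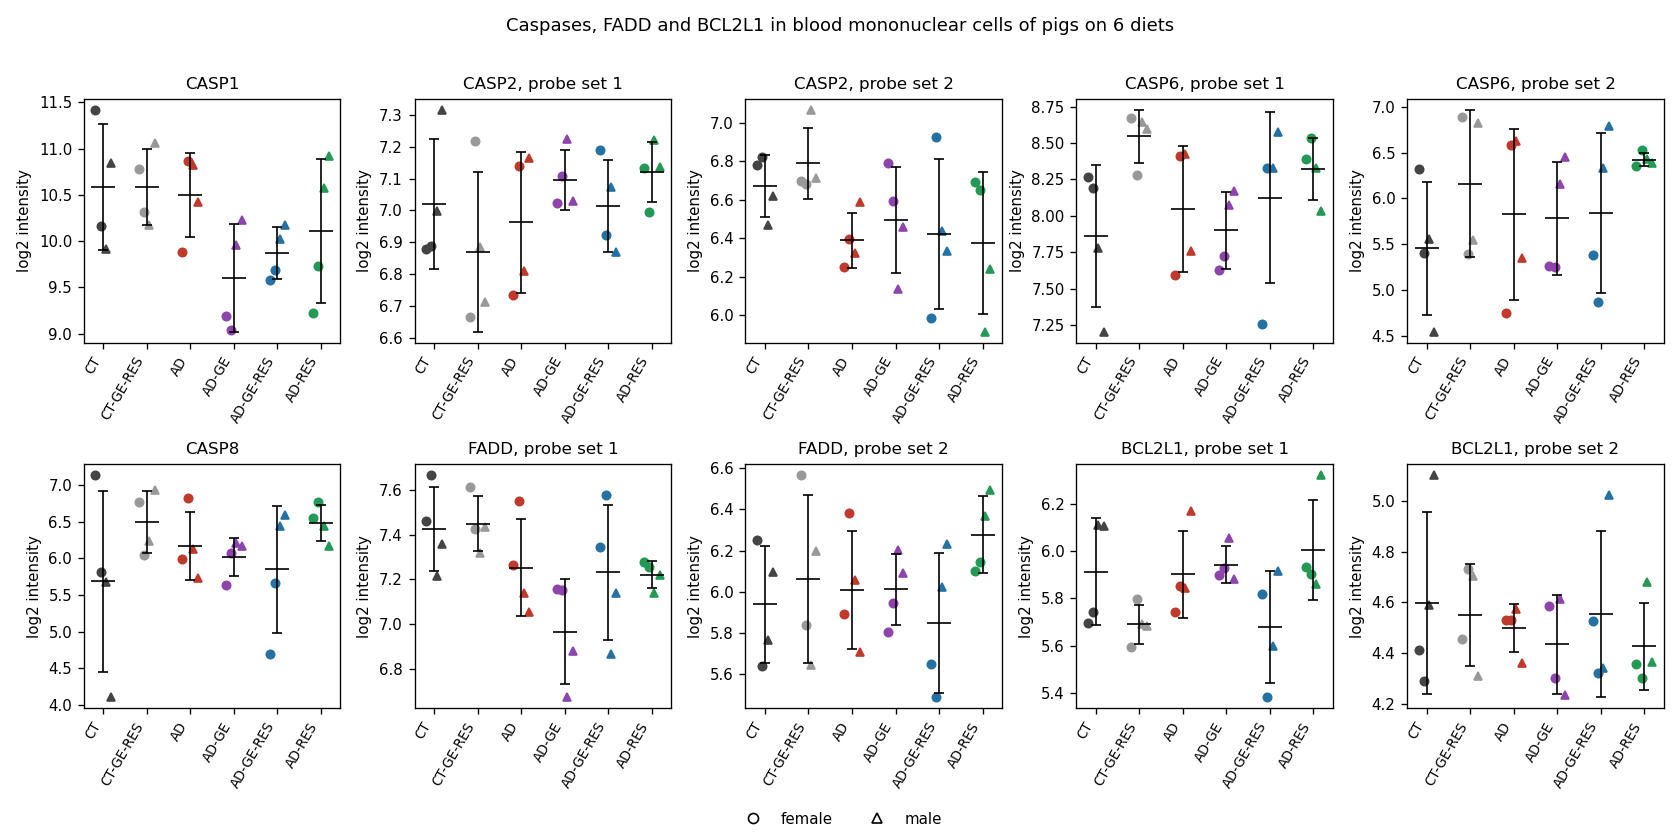
Log2 intensity of the 10 member probe sets (vertical axes) in the 6 diet groups (horizontal axes); circles are females, triangles males, and bars give the mean ± SD of 4 animals. CASP1 is lowest in AD-GE (mean 9.61), and CASP8 in CT holds 1 animal at 4.11, far under the others of its group.

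**Figure D2:**
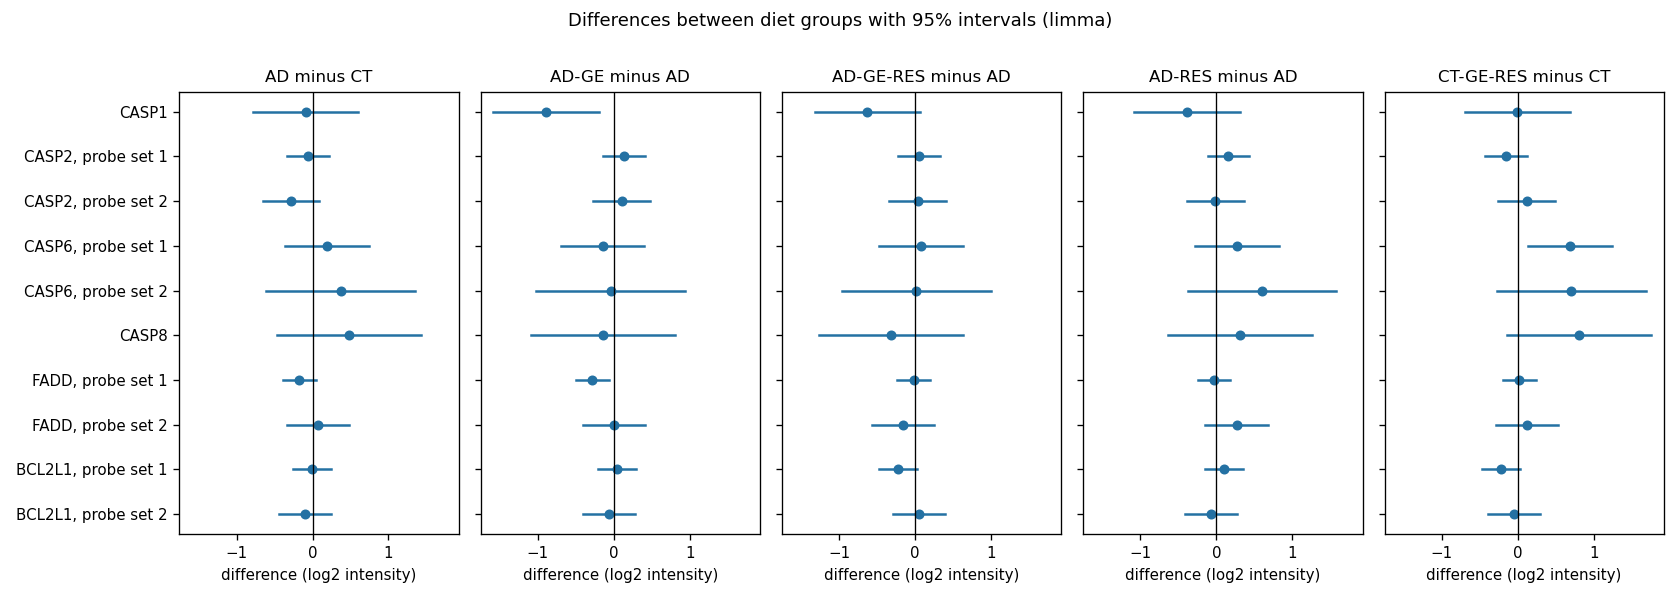
Difference in log2 intensity (horizontal axes) with 95% intervals from limma for the 10 members (rows) in the 5 comparisons (panels), with a line at 0. The interval lies off 0 for CASP1 and FADD probe set 1 in AD-GE against AD and for CASP6 probe set 1 in CT-GE-RES against CT, none of which passed after adjustment.

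CASP1, the inflammatory caspase, spanned the group means from 10.59 in CT to 9.61 in AD-GE. Its signal in the 4 AD animals was 9.88, 10.86, 10.83 and 10.42, and in the AD-GE animals it was 9.19, 9.04, 9.96 and 10.23. Both AD-GE females lay under every AD animal, while both males lay within the AD range, so the groups overlapped. AD-GE stood 0.89 lower (SE 0.33, n = 4 against 4), which is 1.86-fold, with a limma p of 0.0140 and an adjusted p of 0.786. The exact two-sided permutation test of the 4 against 4 animals gave 0.0857, where the smallest p it allows is 0.0286. Leaving out each animal in turn gave differences from -1.04 to -0.69.

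The other supplemented groups also had CASP1 means under that of AD. In AD-GE-RES the values were 9.58, 9.69, 10.02 and 10.18, with a difference of -0.63 (SE 0.33, adjusted p 1.000 by limma). In AD-RES they were 9.22, 9.73, 10.57 and 10.92, with a difference of -0.39 (SE 0.33, adjusted p 0.980 by limma). The AD-RES females lay under all AD animals and the males within or above the AD range: the difference was -0.90 in females and 0.12 in males, and this contrast between the sexes was not tested. On standard chow the CT animals stood at 11.42, 10.16, 9.92 and 10.85 and the CT-GE-RES animals at 10.78, 10.32, 10.17 and 11.06. These groups overlapped over most of their range, with a difference of -0.01 (SE 0.33) and a 95% interval from -0.70 to 0.69. AD differed from CT by -0.09 (SE 0.33), and without CT 1 this difference turned to 0.28 and that of CT-GE-RES to 0.36. The difference of the enriched extract's effect between the diets was -0.62 (SE 0.47, adjusted p 1.000 by limma). In order of their means the groups ran CT, CT-GE-RES, AD, AD-RES, AD-GE-RES and AD-GE, and no step between neighbours, the largest being 0.39, exceeded the SD within groups of 0.56.

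The 2 classes of RNA ratio held 2 arrays each of AD, of AD-GE and of AD-GE-RES. Within the lower ratio class CASP1 was 10.86 and 10.83 on AD alone, 9.96 and 10.23 with grape extract and 10.02 and 10.18 with the enriched extract. Within the higher class it was 9.88 and 10.42 on AD alone, 9.19 and 9.04 with grape extract and 9.58 and 9.69 with the enriched extract. Both supplemented groups thus lay wholly under AD in each class, by 0.75 and 1.04 for AD-GE and by 0.74 and 0.52 for AD-GE-RES. Each of these sets 2 arrays against 2, and the AD arrays are the same for both. The class break was chosen after seeing the ratios, and the share of all probe sets with such a pattern was not counted. In both of these groups the lower class was the males and the higher class the females, so sex and RNA ratio cannot be told apart within them. With the class as a block, the differences were -0.89 (SE 0.25, p 0.00201, adjusted p 0.529) for AD-GE, -0.63 (SE 0.25, p 0.0211, adjusted p 0.999) for AD-GE-RES and -0.73 (SE 0.27, p 0.0125, adjusted p 0.551) for AD-RES, all by limma. All 4 AD-RES arrays were in the lower class, where their mean was 0.73 under AD and 1 of them lay above both AD animals.

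Monocyte and interferon genes stood lower beside CASP1 in AD-GE, though none of them passed after adjustment in any of the 5 comparisons. The lists were chosen with earlier results of these data known, so their counts are a description. Of all probe sets 6.09% had an unadjusted p under 0.05 for AD-GE against AD, 2.4% for AD-GE-RES and 4.45% for AD-RES, in either direction. In AD-GE all 15 monocyte genes had a lower mean than in AD, 3 of them at an unadjusted p under 0.05, and the mean of the list was 7.47 to 7.98 in AD-GE against 8.23 to 8.55 in AD, without overlap. Of 20 interferon response genes 19 were lower and 11 of them had an unadjusted p under 0.05, with a median difference of -0.89 against 0.01 over all probe sets. Among them IFIT2, an interferon-induced RNA-binding protein, differed by -1.39 (adjusted p 0.683 by limma) and DDX58, a sensor of viral RNA, by -0.98 (adjusted p 0.683). For AD-GE-RES against AD, 18 of the 20 interferon genes had a lower mean, 2 at an unadjusted p under 0.05 (median difference -0.49). On the monocyte list this held for 14 of 15, 1 at that level (median difference -0.32). In AD-RES 14 of 20 interferon genes were lower, 0 at an unadjusted p under 0.05, and 13 of 15 monocyte genes. The drop was not limited to these lists. Of the neutrophil genes 5 of 6 stood under AD in AD-GE (median difference -0.77), and 6 of 6 in AD-GE-RES and in AD-RES. Against CT, 5 of 6 did so in CT-GE-RES. In CT-GE-RES against CT, where CASP1 differed by -0.01, 15 of 20 interferon genes and 10 of 15 monocyte genes were lower, with an interferon median of -0.35. With the monocyte list mean in the model the CASP1 difference was -0.33 (SE 0.28, adjusted p 0.945 by limma) in AD-GE, -0.29 (SE 0.26) in AD-GE-RES and 0.06 (SE 0.27) in AD-RES. CASP1 itself had a slope of 0.92 (SE 0.22, adjusted p 0.0163 by limma) on the monocyte list mean beside diet and sex, where 7.16% of all probe sets had an adjusted p under 0.05; no other member did. Across the 24 arrays, which share this RNA source, CASP1 had r = 0.87 with the mean of the interferon list and 0.72 with that of the monocyte list, and within diet and sex 0.78 and 0.65. The part of monocyte RNA in the CASP1 differences was not tested beyond these fits.

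**Figure D3:**
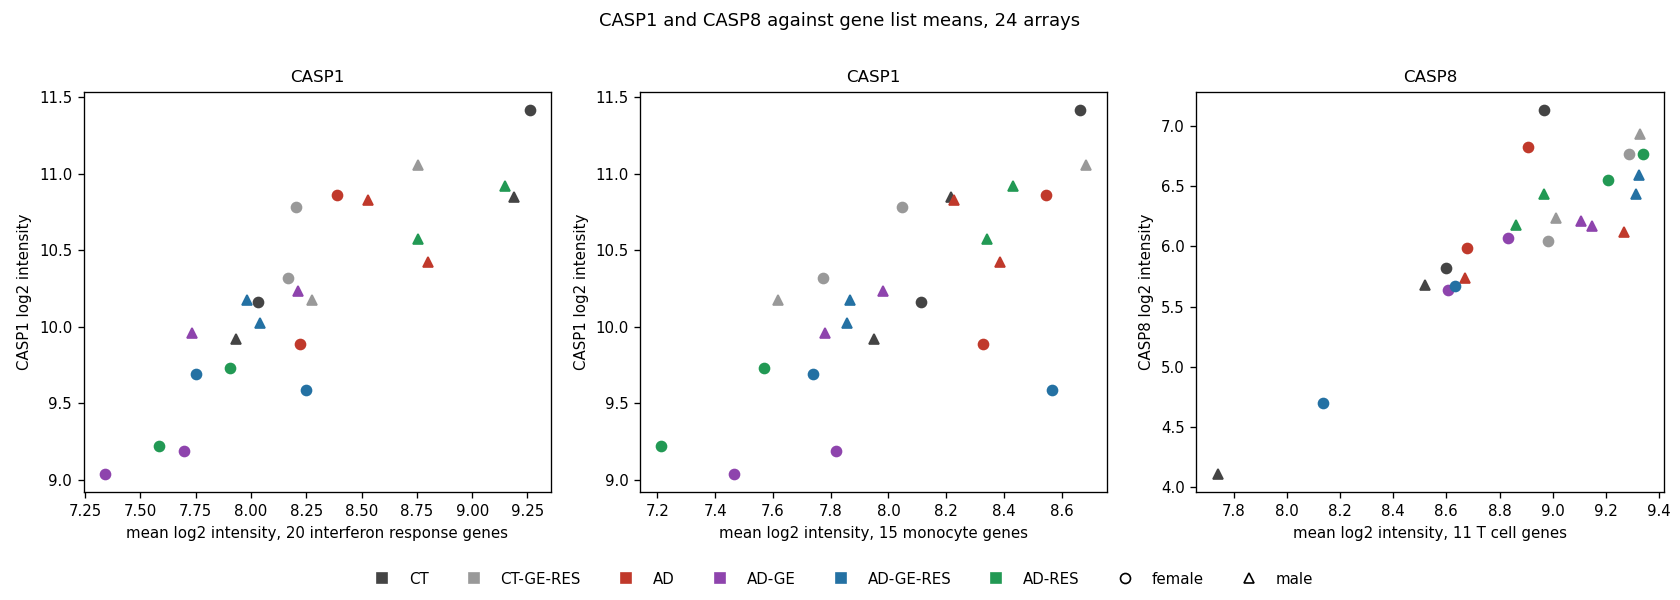
CASP1 log2 intensity against the mean log2 intensity of 20 interferon response genes (left) and of 15 monocyte genes (centre), and CASP8 against that of 11 T cell genes (right), one point per array, coloured by diet group with circles for females and triangles for males. CASP1 is high where the interferon list is high (r = 0.87), and the 2 lowest CASP8 arrays are also the 2 lowest for T cell genes.

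The 5 other genes most like CASP1 over the 24 arrays, by Pearson's r, were OAS1 (0.88), CTSZ (0.85), GGH (0.85), XAF1 (0.85) and CLIC2 (0.85). OAS1 and XAF1 are interferon-induced, and CTSZ and GGH encode lysosomal enzymes. Of the substrates and partners of CASP1 on the array, IL18 stood 1.47 lower in AD-GE than in AD (SE 0.58, p 0.0193, adjusted p 0.804 by limma) and IL1B 0.25 lower (SE 0.55). The inflammasome list as a whole had 8 of 10 genes lower in AD-GE, with a median difference of -0.17. Of these 1 had an unadjusted p under 0.05, where 6.09% of all probe sets did. In AD-RES 9 of 10 genes of the list were lower, again with 1 at that level (4.45% of all probe sets), and in AD-GE-RES 5 of 10. In AD against CT IL1B stood 1.09 higher (SE 0.55, adjusted p 0.759), and 6 of the 10 were higher, none at an unadjusted p under 0.05.

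FADD, the adaptor of the death receptors, had its lowest mean in AD-GE by probe set 1. The CT animals stood at 7.46, 7.66, 7.22 and 7.36 and the CT-GE-RES animals at 7.61, 7.42, 7.32 and 7.43. The AD animals stood at 7.27, 7.55, 7.14 and 7.05 and the AD-GE animals at 7.16, 7.15, 6.67 and 6.88. Within each sex both AD-GE animals lay under both AD animals, but across the sexes AD-GE females lay above both AD males. The difference was -0.29 (SE 0.10), 1.22-fold lower, with p 0.0121, an adjusted p of 0.782 by limma and an exact permutation p of 0.171 for the 4 against 4 animals. Leaving out each animal gave -0.33 to -0.23. In the lower ratio class the difference was -0.57, between 2 males and a female and male of AD, and in the higher class -0.00.

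The remaining FADD groups lay between these. AD-GE-RES stood at 7.35, 7.57, 6.86 and 7.14 and AD-RES at 7.28, 7.25, 7.14 and 7.22, with differences from AD of -0.02 (SE 0.10) and -0.03 (SE 0.10). For AD against CT probe set 1 had the smallest p of the 10 members, 0.111, with a difference of -0.17 (SE 0.10, adjusted p 0.771 by limma). From the highest mean to the lowest the groups ran CT-GE-RES, CT, AD, AD-GE-RES, AD-RES and AD-GE. The step to AD-GE, 0.25, exceeded the SD within groups of 0.20, and no other step did. In limma's F test over the 6 groups FADD probe set 1 had the smallest p of the members, 0.00204 (adjusted p 0.308), followed by CASP1 with 0.0308 (adjusted p 0.480), and 9.16% of all probe sets had an unadjusted p under 0.05.

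FADD probe set 2 gave other values. It differed between AD-GE and AD by 0.00 (SE 0.20), and across the 24 arrays the 2 sets had r = -0.09, and 0.37 within diet and sex. For AD-RES against AD it had the smallest p of the members, 0.190, with a difference of 0.27 (SE 0.20, adjusted p 0.980 by limma). The AD animals stood at 5.89, 6.38, 6.06 and 5.71 and the AD-RES animals at 6.10, 6.15, 6.37 and 6.49. 1 AD-RES male lay above that range and the other 3 animals within it. The genes most like FADD probe set 1 were UTP11 (r = 0.80), UGP2 (0.80), DET1 (0.79), SEPHS2 (0.79) and FNTA (0.79), and none is a death receptor gene.

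CASP8, the initiator that FADD recruits, varied more within groups than between them. The CT animals stood at 7.14, 5.82, 5.68 and 4.11 and the CT-GE-RES animals at 6.77, 6.04, 6.24 and 6.93. CT held both the highest and the lowest array of the series, and CT-GE-RES lay inside its range. The difference of 0.81 (SE 0.46, p 0.0906, adjusted p 0.700 by limma) was -0.07 in females and 1.69 in males, where CT 4 was one of the arrays that stand apart. In the other groups the mean was 6.48 ± 0.25 (SD, n = 4) for AD-RES, 6.17 ± 0.47 for AD, 6.02 ± 0.26 for AD-GE and 5.85 ± 0.87 for AD-GE-RES. None of these supplemented groups differed from AD by more than the standard error of 0.46. The difference of the enriched extract's effect on CASP8 between the diets was -1.13 (SE 0.64, p 0.0953, adjusted p 1.000 by limma).

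CASP2 is an initiator caspase linked to DNA damage and errors of cell division. Its probe set 1 had group means from 6.87 to 7.12 and probe set 2 from 6.37 to 6.79. Probe set 2 was 6.78, 6.82, 6.47 and 6.62 in CT and 6.25, 6.40, 6.32 and 6.59 in AD. All but the highest AD animal lay under every CT animal, with a difference of -0.28 (SE 0.18, adjusted p 0.771 by limma, exact permutation p 0.0571 for 4 against 4). Probe set 1 differed there by -0.06 (SE 0.13). The 2 CASP2 probe sets had r = -0.35 over the 24 arrays, so they did not rank the animals alike.

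CASP6, an executioner caspase that cuts nuclear lamins, was the member whose groups did not overlap in 1 of the 5 comparisons. Probe set 1 was 8.26, 8.19, 7.78 and 7.20 in CT and 8.67, 8.28, 8.64 and 8.59 in CT-GE-RES, so every supplemented animal lay above every CT animal. The difference was 0.69 (SE 0.27), 1.61-fold, with p 0.0175, an adjusted p of 0.700 by limma and an exact permutation p of 0.0286 for 4 against 4, the smallest it allows. It was 0.24 in females and 1.13 in males, a contrast between the sexes that was not tested. Groups without overlap were found for 4.03% of all probe sets in this comparison. Within the lower ratio class the 2 CT-GE-RES arrays lay 0.37 above the single CT array, and within the higher class 2 lay 0.73 above 3. The lack of overlap within classes follows from that of the whole groups. With the ratio in the model the difference was 0.41 (SE 0.22), and without 1 animal it ran from 0.44 to 0.84, the lowest without CT 4. Probe set 2 differed by 0.71 (SE 0.47), and by 0.01 (SE 0.17) with the ratio in the model. All 11 T cell genes were also higher in CT-GE-RES, 7 at an unadjusted p under 0.05, where 6.8% of all probe sets were. The T cell list means ran from 8.98 to 9.33 in CT-GE-RES against 7.74 to 8.97 in CT.

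CASP6 probe set 1 in the atherogenic groups had means of 8.32 ± 0.21 (SD, n = 4) for AD-RES, 8.12 ± 0.59 for AD-GE-RES, 8.05 ± 0.43 for AD and 7.90 ± 0.26 for AD-GE, and each supplemented group overlapped AD. Of the caspase substrates, the lamin gene LMNB1 differed by -0.61 in AD-GE (SE 0.15, p 0.000771, adjusted p 0.548 by limma), by -0.39 in AD-RES (adjusted p 0.980) and by 0.41 in CT-GE-RES against CT (adjusted p 0.700). LMNA, the other lamin gene on the list, differed by -0.55 in AD-GE (adjusted p 0.804 by limma) and by -0.49 in AD-RES (adjusted p 0.980). In CT-GE-RES against CT LMNA went the other way from LMNB1, at -0.40 (adjusted p 0.700). DFFA had the smallest p of the substrate list there, 0.00476, with a difference of 0.36 (adjusted p 0.700 by limma). The list of 7 substrates had 5 lower in AD-GE, 2 at an unadjusted p under 0.05 (6.09% of all probe sets), and none adjusted.

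BCL2L1, the mitochondrial guard, varied least of the 3 genes followed by animal. Its probe set 1 was 5.70, 5.74, 6.11 and 6.11 in CT and 5.59, 5.80, 5.69 and 5.68 in CT-GE-RES. The CT males stood above all CT-GE-RES animals and the CT females among them, with a difference of -0.22 (SE 0.12, p 0.0782, adjusted p 0.700 by limma). In AD it was 5.74, 5.85, 5.84 and 6.17 and in AD-GE-RES 5.82, 5.38, 5.60 and 5.91, overlapping, with a difference of -0.22 (SE 0.12, p 0.0777, adjusted p 1.000). The interval of the difference of these effects between the diets ran from -0.36 to 0.35. AD-GE stood at 5.90, 5.93, 6.06 and 5.88 and AD-RES at 5.93, 5.90, 5.86 and 6.32, with differences from AD of 0.04 (SE 0.12) and 0.10 (SE 0.12).

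The BCL2L1 groups ran from AD-RES at 6.01 through AD-GE, CT, AD and CT-GE-RES to AD-GE-RES at 5.68. The step from AD to CT-GE-RES, 0.21, exceeded the SD within groups of 0.18, and no other step did. Probe set 2 had group means from 4.43 to 4.60 with an SD within groups of 0.24. The genes most like probe set 1 over the 24 arrays were CYP2B22 (r = 0.75), ASIP (0.73), CYP27B1 (0.72), HSD3B1 (0.71) and ERAL1 (0.71), none of them of the BCL2 family. BCL2L1 probe set 1 also had r = -0.64 with the B cell list mean and 0.55 with the erythroid list mean, and within diet and sex -0.65 and 0.18.

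The rest of the death pathway held no probe set past the adjusted threshold in the 5 comparisons. Over all probe sets 6.38% had an unadjusted p under 0.05 for AD against CT, 6.09% for AD-GE, 4.45% for AD-RES and 6.8% for CT-GE-RES. For AD-GE-RES against AD, where 2.4% did, 0 genes of the lists below reached it. Of 12 genes of extrinsic death signalling, 1 was higher and 1 lower at an unadjusted p under 0.05 for AD against CT: CFLAR, the decoy that competes with CASP8 for FADD, at 0.50 (SE 0.16, adjusted p 0.757 by limma) and the death ligand TNFSF10 at -1.19 (SE 0.41, adjusted p 0.757). In AD-GE 2 were lower, the receptors TNFRSF1A at -0.36 and TNFRSF1B at -0.50 (adjusted p 0.804 for both). In AD-RES 1 was lower, TNFRSF1B at -0.55 (adjusted p 0.980). In CT-GE-RES 2 were higher, the receptor FAS at 0.42 (SE 0.14, adjusted p 0.700) and CFLAR at 0.35. Of 9 other genes of the BCL2 family, BAX, which opens the mitochondrial membrane, was higher at 0.45 (SE 0.17, adjusted p 0.757) for AD against CT and at 0.53 (SE 0.17, adjusted p 0.700) for CT-GE-RES against CT, 2 comparisons with the same control animals. PMAIP1, which neutralises MCL1, stood 1.06 higher in AD (SE 0.40, adjusted p 0.757). BID, which caspase 8 cuts into an activator of BAX, differed by -0.32 in AD-GE (adjusted p 0.814), and BAD, which neutralises BCL2L1, by -0.30 in AD-RES (adjusted p 0.980). Of 6 genes of the apoptosome and its inhibitors, CYCS, cytochrome c itself, differed by -0.47 in AD-GE (adjusted p 0.782), AIFM1 by -0.37 in AD (adjusted p 0.757), and all 6 were higher in CT-GE-RES, 1 at an unadjusted p under 0.05.

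FADD probe set 1 stood lower in males than in females in every diet group, a difference that lay just outside the adjusted threshold. Of its sum of squares over the 24 arrays, diet took 44.7% and sex 34.0%. Probe set 1 averaged 7.40 in the 12 females, between 7.15 and 7.66, and 7.12 in the 12 males, between 6.67 and 7.43. Males had the lower mean in 6 of 6 diet groups, and in 5 of them both males lay under both females. For CASP2 probe set 2 and for CASP8 the sexes did not overlap in 4 of 6 groups, in either direction. The share of all probe sets with such separation was not counted. For FADD probe set 1 the difference was -0.28 (SE 0.06, p 0.000156, adjusted p 0.0530 by limma), while 48 probe sets (0.267% of all) had an adjusted p under 0.05. An exact permutation of sex within the diet groups, over 46656 arrangements, gave a two-sided p of 8.57e-05. The adjusted p was 0.0285 without AD-GE-RES 1 and 0.0470 without CT-GE-RES 2, which would each call it. Over all 33 alternative settings the adjusted p by limma ran from 0.0182 to 0.132, and 28 of them left the difference uncalled. FADD probe set 2 differed by 0.10 (SE 0.11, adjusted p 0.813), and the signal of set 1 relative to set 2 within each array differed by -0.37 (exact permutation p 0.0119 within diet groups). The 3' to 5' ratio, with which this relative signal also moved, averaged 2.60 in females and 2.27 in males, and 7 females and 4 males were in its higher class. The part of the ratio in that difference was not tested.

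**Figure D4:**
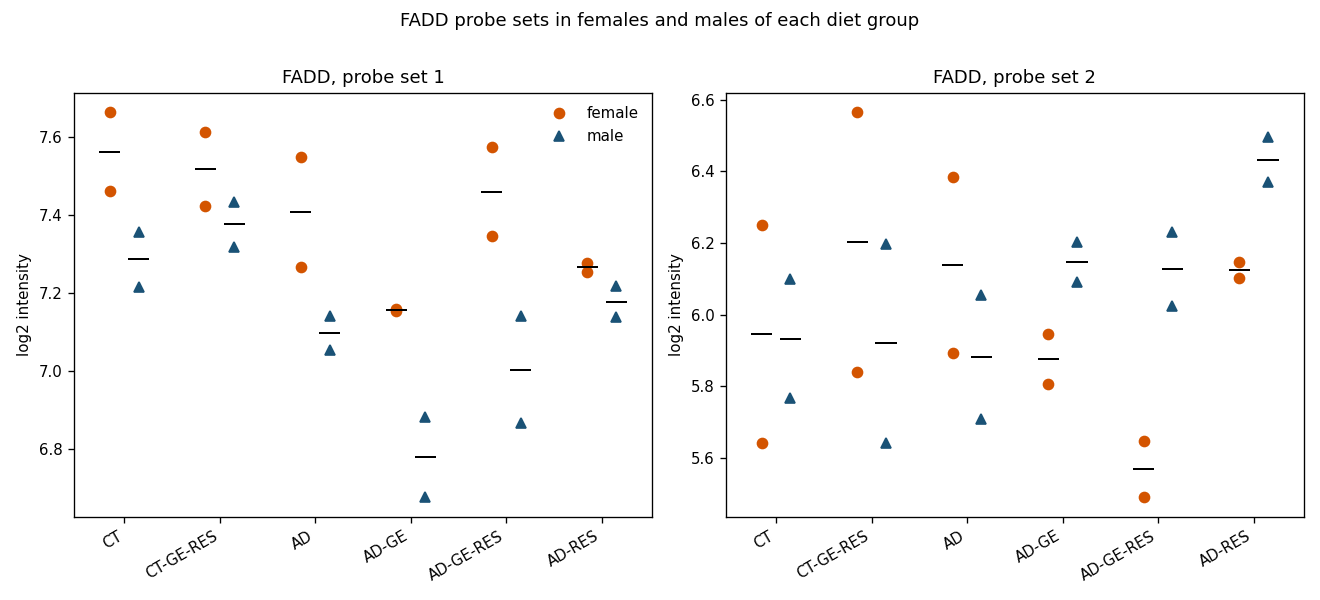
Log2 intensity of the 2 FADD probe sets (vertical axes) in the 2 females (circles) and 2 males (triangles) of each diet group (horizontal axes), with bars at the mean of each pair. By probe set 1 the male mean is the lower in all 6 groups, and by probe set 2 in 3 of 6.

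CASP1 and BCL2L1 probe set 1 had higher means in males. CASP1 averaged 10.43 in males and 9.99 in females, a difference of 0.44 (SE 0.19, p 0.0335, adjusted p 0.439 by limma), with the male mean the higher in 5 of 6 groups. BCL2L1 averaged 5.94 and 5.77, a difference of 0.16 (SE 0.07, p 0.0296, adjusted p 0.429), also in 5 of 6. With FADD these made 3 of 10 members at an unadjusted p under 0.05, where 10.3% of all probe sets were. Of the B cell genes 4 of 4 had lower means in males, of which 1, CD40, passed (-0.52, adjusted p 0.0482 by limma), and the B cell list mean ran from 7.33 to 8.43 in males and from 7.66 to 8.94 in females. Of the interferon genes 16 of 20 were higher in males, 10 of them at an unadjusted p under 0.05 and 0 after adjustment. FADD probe set 1 had r = 0.55 with the B cell list mean over all arrays and 0.08 within diet and sex. The part of B cell RNA in the FADD difference was not tested.

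CASP6, CASP8, CASP1 and FADD probe set 2 fell with the 3' to 5' ratio of the arrays. With diet and sex in the model, 5 of 10 members had a slope on the ratio at an adjusted p under 0.05, all lower where the ratio was higher, where 11.5% of all probe sets had such a slope and 8.29% a negative one. The slope was -0.74 (SE 0.06, adjusted p 2.00e-08 by limma) for CASP6 probe set 2, -0.64 (SE 0.09, adjusted p 5.71e-05) for CASP8 and -0.24 (SE 0.05, adjusted p 0.00418) for FADD probe set 2. It was -0.29 (SE 0.08, adjusted p 0.0147) for CASP6 probe set 1 and -0.33 (SE 0.10, adjusted p 0.0369) for CASP1. FADD probe set 1, both CASP2 sets and both BCL2L1 sets had slopes between 0.02 and 0.07, none of which passed.

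The 2 classes of arrays differed in the same members. CASP6 probe set 2 ran from 6.16 to 6.89 in the 13 arrays of lower ratio and from 4.55 to 5.55 in the 11 of higher ratio, without overlap. The class break was chosen after seeing the ratios, and the share of all probe sets without overlap between the classes was not counted. CASP8 ran from 6.12 to 7.14 and from 4.11 to 6.24, and FADD probe set 2 from 6.02 to 6.57 and from 5.49 to 6.10. For CASP8 and FADD probe set 2 the classes met only at their edges, while CASP1 ran from 9.22 to 11.42 and from 9.04 to 10.85 and overlapped widely. The class difference from limma was -1.32 (SE 0.13, adjusted p 6.07e-07) for CASP6 probe set 2, -1.05 (SE 0.21, adjusted p 0.00187) for CASP8 and -0.68 (SE 0.17, adjusted p 0.0127) for CASP1, where 9.05% of all probe sets were called. With the class in the model no member had a slope within classes at an adjusted p under 0.05, where 1.27% of all probe sets did. The slope within classes was -0.84 (SE 0.27, adjusted p 0.162 by limma) for CASP8 and -0.51 (SE 0.17, adjusted p 0.164) for CASP6 probe set 2. It was -0.12 (SE 0.22) for CASP6 probe set 1, 0.17 (SE 0.27) for CASP1 and 0.04 (SE 0.14) for FADD probe set 2. These standard errors were larger than without the class. Within the classes CASP6 probe set 2 had r of -0.59 (n = 13) and -0.61 (n = 11) with the ratio, and CASP8 -0.38 and -0.72, while CASP1 had -0.62 and 0.23.

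**Figure D5:**
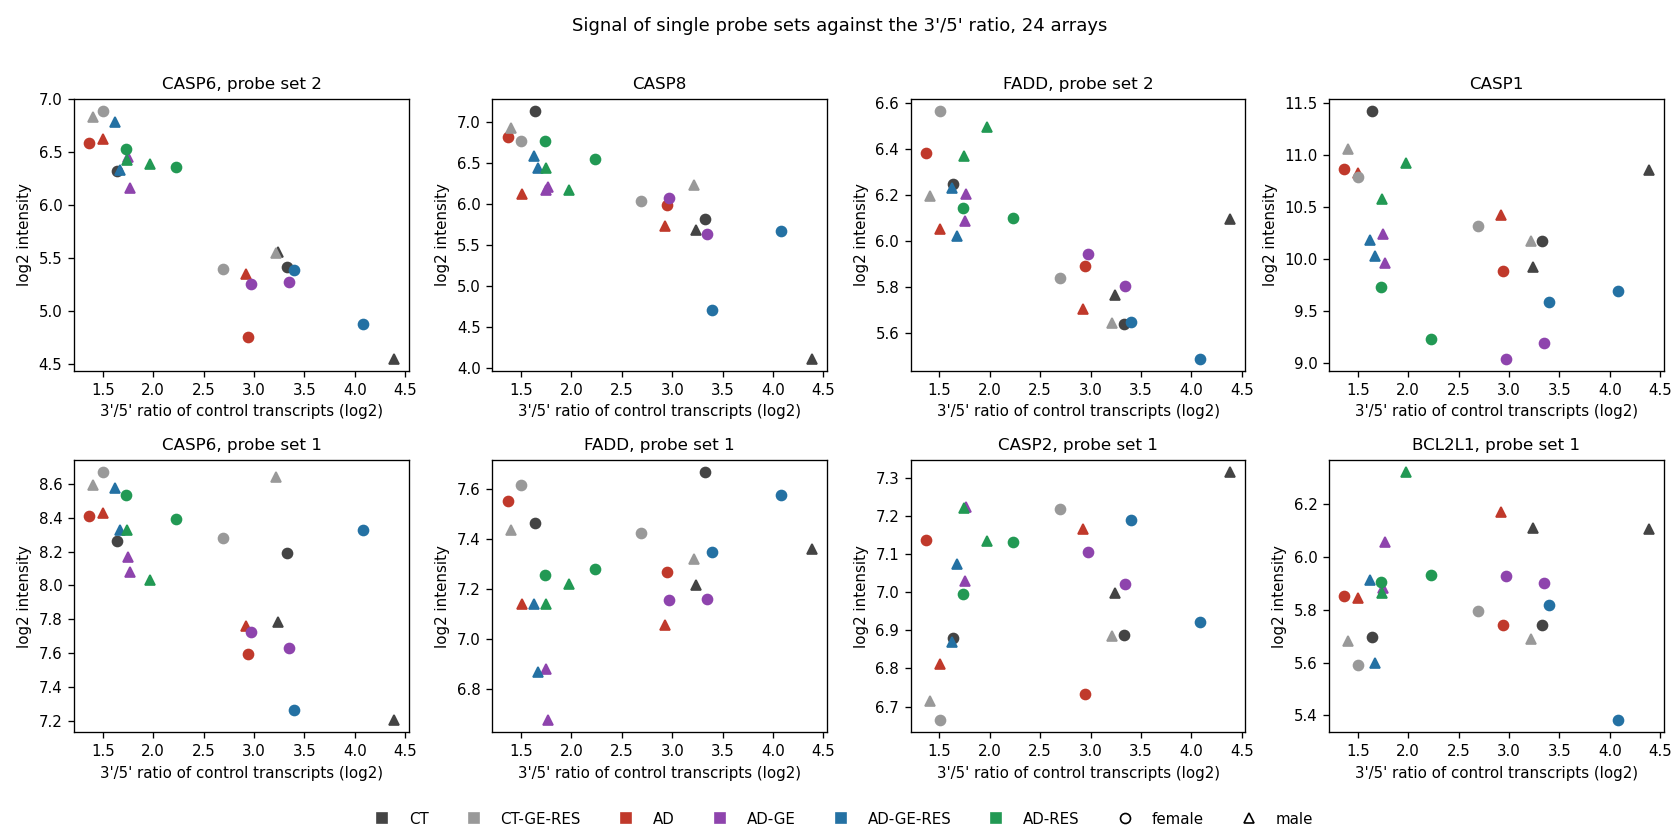
Log2 intensity of 8 of the 10 probe sets (vertical axes) against the log2 ratio of 3' to 5' signal of control transcripts (horizontal axes), one point per array, coloured by diet group with circles for females and triangles for males. The 11 arrays with a ratio of 2.69 or more lie under all others for CASP6 probe set 2, and FADD probe set 1 has no such step. The share of all probe sets with such a step was not counted.

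The CASP1 slope was not called without any one of 8 arrays: without CT 1 it was -0.22 (adjusted p 0.280 by limma), and without AD 1, AD 2, AD 4, AD-GE 4, CT-GE-RES 1, CT-GE-RES 3 or CT-GE-RES 4 it lay between -0.33 and -0.30, with adjusted p from 0.0543 to 0.0928. The CASP6 probe set 1 slope was not called without CT 4 (-0.24, adjusted p 0.0740). The slopes of CASP6 probe set 2, CASP8 and FADD probe set 2 stayed past the threshold with each of the 24 arrays left out in turn. With the ratio taken from actin alone the CASP1 slope had an adjusted p of 0.0931, and after a further quantile normalization 0.0642. T cell genes moved with the ratio: 5 of 11 had a negative slope that passed, and the T cell list mean ran from 8.86 to 9.34 in the lower class and from 7.74 to 9.01 in the higher. Over the 24 arrays the T cell list mean had r = -0.84 with the ratio, so a fit with both separates them poorly. With the T cell list mean as a further term the slopes were 0.08 (SE 0.09, adjusted p 0.591 by limma) for CASP6 probe set 1 and -0.21 (SE 0.12, adjusted p 0.229) for CASP8. In the same fit CASP6 probe set 2 stood at -0.72 (SE 0.11), FADD probe set 2 at -0.42 (SE 0.08) and CASP1 at -0.68 (SE 0.15), all past the threshold. CASP2 probe set 2 reached 0.35 (SE 0.09, adjusted p 0.0111 by limma), where 17% of all probe sets were called.

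The 2 probe sets of FADD, and those of CASP6, parted between the classes. The signal of FADD probe set 1 relative to set 2 within an array was 0.47 to 1.24 in the lower class and 1.21 to 2.09 in the higher, and that of the CASP6 sets was 1.65 to 2.03 and 1.88 to 3.46. For CASP2 it was -0.03 to 1.31 and -0.18 to 1.21, and for BCL2L1 0.89 to 1.96 and 0.99 to 1.81, so these pairs showed no such step. Where the probes of each set lie along the transcript was not used here.

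Over all arrays the highest correlation between members was that of CASP8 and CASP6. Over the 24 arrays CASP8 had r = 0.82 with CASP6 probe set 1 and 0.77 with probe set 2, and within diet and sex 0.74 and 0.70. All 3 had r of 0.81 to 0.89 with the T cell list mean, and CASP8 had 0.92 with it within diet and sex. CASP6 probe set 2 had r = 0.73 with FADD probe set 2, and 0.78 within diet and sex. CASP8 had r between -0.45 and 0.53 with the members other than CASP6. CASP1 and FADD probe set 2 had r = 0.53 over all arrays and 0.85 within diet and sex, while CASP1 and FADD probe set 1 had r = 0.25 and 0.38. The arrays differ in RNA ratio and cell mixture, which all members of an array share, and the correlations are a description.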

How the data were processed

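RMA and GCOS are named in the submitters' processing notes, with neither role nor version given. The authors deposited 1 linear intensity per probe set and array. The log2 of each deposited intensity was taken. Of 24123 probe sets, 124 controls and the lowest 25% by mean (under log2 3.57) were left out, leaving 17999. Symbols came from the platform's annotation. A model of 6 group means and sex was fitted to 24 arrays with limma 3.58.1 in R 4.3.3 (two-sided, Benjamini-Hochberg over 17999, threshold 0.05) and tested on simulated data. Single-sex differences came from a fit of 12 diet and sex groups. P-values measure the spread between animals. The ratio is the mean log2 difference of 3' and 5' probe sets of GAPDH, actin and EF1A; its classes (break at 2.5) were chosen after seeing the ratios. Correlations are Pearson's.

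The members and all gene lists were chosen with earlier results of these data known. Values by animal are given for CASP1, FADD, BCL2L1 and, in each comparison, the member with the smallest p; members at an unadjusted p under 0.05 are named, and up to 4 genes of each pathway list. Other values by animal (CASP8, CASP2, CASP6 groups) were added after seeing them. Alternatives were other filters, normalization, weights, priors, covariates, single sexes and animals left out. Sequences and genome positions were not used here.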

Additional observations from a re-analysis of the deposited data

Results flagged for a closer look

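In 60 sets of 4 animals, each a member in a diet group, 2 held an animal far from the others: BCL2L1 probe set 1 in AD-RES 4, at 6.32, and CASP2 probe set 2 in CT-GE-RES 3, at 7.07. Chance alone flags about 1 set in 20.

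In 4 of 50 comparisons of a member, the females of the 2 groups did not overlap, and the males did not overlap in the opposite direction. Each group had 2 animals of a sex. The share of all probe sets with this pattern was not counted, so the count cannot be set against chance. BCL2L1 probe set 2 differed between AD and CT by 0.18 in females and -0.38 in males; its interaction with sex was -0.56 (SE 0.33, adjusted p 0.431 by limma). CASP2 probe set 2 differed between AD-RES and AD by 0.35 in females and -0.38 in males, and between CT-GE-RES and CT by -0.11 and 0.35. CASP8 differed between AD-GE-RES and AD by -1.22 in females and 0.59 in males, where AD-GE-RES 1 is one of the arrays that stand apart. These last 3 differences between the sexes were not tested.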

How the results depend on the processing

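The count of members past the adjusted threshold was 0 in the 5 diet comparisons, the F test and both interactions under every alternative run for them. For males against females it was 1 with the lowest 50% of probe sets left out, 2 with array weights, 1 with the monocyte list mean in the model, and 0 to 1 with 1 animal left out. The count of slopes on the ratio was 0 with the ratio class in the model, chosen after seeing the data, against 5, and 4 to 5 with 1 animal left out. The slopes within classes were -0.84 for CASP8, -0.51 for CASP6 probe set 2 and -0.12 for CASP6 probe set 1. For CASP1 and FADD probe set 2 the sign changed, to 0.17 and 0.04. All had larger standard errors than without the class.

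Differences near 0 changed sign, and so did larger ones for AD-RES against AD, -0.39 for CASP1 and 0.27 for FADD probe set 2. For AD against CT, BCL2L1 was 0.017 with array weights, 0.031 with the ratio in the model, 0.079 in females, 0.024 without CT 4 and AD-GE-RES 1 together and 0.015 with the ratio class as a block (both chosen after seeing the data), and CASP1 was 0.24 in males. For AD-GE, BCL2L1 was -0.037 in males and -0.013 as the mean of its probe sets. For AD-GE-RES, FADD was 0.0050 with arrays centred on their medians, 0.016 with the monocyte mean and 0.053 in females. For AD-RES, FADD was 0.011 with weights, 0.018 with the monocyte mean, 0.081 in males and 0.12 as the mean of its probe sets, FADD probe set 2 was -0.013 in females, and CASP1 was 0.059 with the monocyte mean and 0.12 in males. For CT-GE-RES, FADD was -0.031 after quantile normalization, -0.028 with weights and -0.045 in females, and CASP1 was 0.14 with weights, 0.18 with the monocyte mean, 0.23 in males and 0.010 without the 2 arrays. With 1 animal left out, AD against CT ran from -0.40 to 0.28 for CASP1 and from -0.077 to 0.038 for BCL2L1, AD-GE from -0.0095 to 0.11 for BCL2L1, AD-GE-RES from -0.093 to 0.060 for FADD, AD-RES from -0.078 to 0.026 for FADD, and CT-GE-RES from -0.32 to 0.36 for CASP1 and from -0.022 to 0.080 for FADD. The cause of these shifts was not tested. No paired analysis was possible because each animal received 1 diet and the labels pair no animals across groups. Signal over background was not used here, so how far dim signal limits BCL2L1 probe set 2 is unknown.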
